A study of Mus musculus with 8 samples.

Results

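Ezh2 and G9a peaks were examined at 7 genes that encode transcription factors of gastrulation and endoderm formation: T, Eomes, Gsc, Mixl1, Foxa1, Foxa2 and Sox17. The members were all peaks that overlapped a fixed mm9 window of 60 to 80 kb at each gene by at least 1 bp, in any of the 5 deposited peak lists. The windows were chr17:8600001-8660000 (T), chr9:118360001-118430000 (Eomes), chr12:105680001-105740000 (Gsc), chr1:182590001-182660000 (Mixl1), chr12:58610001-58680000 (Foxa1), chr2:147830001-147910000 (Foxa2) and chr1:4460001-4520000 (Sox17). The windows held 143 of the 174428 peaks of the series: 41, 29 and 34 of Ezh2 (wild-type library 0, wild-type library 1 and knockout) and 15 and 24 of G9a (wild type and rescue). The peaks were called by ChIP-seq in TT2 cells, a mouse embryonic stem cell line whose strain field names a CBA male and a C57BL/6 female, kept in serum and LIF. Ezh2 was profiled in wild-type cells (libraries 0 and 1 by their labels, 2 in all) and in G9a-/-GLP-/- cells (1 library), called the knockout here. G9a was profiled in wild-type cells (1 library) and in G9a-/-GLP-/- cells given back wild-type G9a (1 library), called the rescue, which by its label still lacked GLP. The labels name no clone for the knockout cells, and peak lists do not allow a check of the deleted genes. All cells were fixed with formaldehyde, and G9a samples alone had a prior step with the protein crosslinker DSG.

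Ezh2 is the methyltransferase subunit of Polycomb repressive complex 2, which marks histone H3 at lysine 27. In embryonic stem cells this complex is known for covering the genes of developmental regulators that are silent until the cells differentiate. G9a and GLP form a heterodimer that methylates histone H3 at lysine 9. Of the 7 genes, T (Brachyury) and Eomes encode T-box factors of the primitive streak, and Gsc and Mixl1 encode paired-type homeodomain factors of the organizer and the streak. Foxa1 and Foxa2 encode forkhead pioneer factors, of which Foxa2 is needed for node, notochord and definitive endoderm. Sox17 encodes an HMG-box factor of definitive endoderm.

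CpG-rich promoters are a known feature of Polycomb target genes, so RefSeq promoter stretches are shown first for 3 members: the one with the most CG dinucleotides, the one with the fewest among members with 1 entry, and T, whose Ezh2 coverage differed from that of the other genes. Each is the 250 bases before the gene start in GRCm38.p6, 5′ to 3′ on the gene's strand, with each CG (its own reverse complement) in capitals. The peak lists are on mm9, so these coordinates do not match those of the peaks, and whether a start lies under a peak was not determined. The table matched 5 of the 7 genes, all except Mixl1 and Sox17.
Gsc, chr12:104473237-104473486, minus strand: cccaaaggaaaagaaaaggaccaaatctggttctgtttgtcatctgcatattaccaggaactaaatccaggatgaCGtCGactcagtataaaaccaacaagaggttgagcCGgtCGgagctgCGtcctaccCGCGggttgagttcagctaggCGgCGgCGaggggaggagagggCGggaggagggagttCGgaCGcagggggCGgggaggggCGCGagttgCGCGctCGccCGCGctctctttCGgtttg
T, chr17:8434173-8434422, plus strand: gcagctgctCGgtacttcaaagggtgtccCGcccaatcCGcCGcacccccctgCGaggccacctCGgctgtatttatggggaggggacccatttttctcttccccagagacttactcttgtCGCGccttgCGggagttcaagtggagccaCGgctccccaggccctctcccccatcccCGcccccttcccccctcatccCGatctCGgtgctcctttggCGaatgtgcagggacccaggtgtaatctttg
Eomes, chr9:118477939-118478188, plus strand: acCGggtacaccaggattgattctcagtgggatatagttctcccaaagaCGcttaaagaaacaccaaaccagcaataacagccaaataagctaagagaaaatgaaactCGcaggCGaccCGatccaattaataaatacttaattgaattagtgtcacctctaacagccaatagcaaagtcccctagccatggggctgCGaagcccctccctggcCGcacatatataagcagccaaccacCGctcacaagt
The Gsc stretch held 22 CG (59.2% G or C), the T stretch 14 (62.8%) and the Eomes stretch 8 (46.4%). Over 32841 RefSeq promoter stretches of the same length the median was 6, and 92.1% held at least 1. At least as many CG as in Gsc and T were found in 14.8% and 29.4% of them. Foxa1 had 21 CG (16.4% of stretches had as many), and the 3 Foxa2 entries had 6, 20 and 13 (50.4%, 18.0% and 31.5%). Among these 5 genes, which all carried Ezh2 in every Ezh2 list, CG counts thus ran from the median of all stretches to well above it.

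The lists differed in length and threshold, which bears on every count below. They held 5425, 11766 and 6198 Ezh2 peaks and 67318 and 83721 G9a peaks, with lowest scores of 43.02, 30, 43.03, 20 and 20 in the same order. A score is the authors' own value per peak, set by their peak caller MACS. Scores were used to rank peaks within a list and, as an alternative, as a common minimum. The lists used here give no read counts, so sequencing depth is unknown, and an uncalled peak is one below that list's threshold. In library 1 a score of 3100 was shared by 322 peaks, which therefore tied in rank. With 1 library for every group other than wild-type Ezh2, no test between conditions was possible. Whether libraries 0 and 1 are separate cultures is not stated in the labels. The knockout Ezh2 library carries the number 0, like wild-type library 0, and both G9a libraries carry the number 1, like wild-type Ezh2 library 1; the labels do not say what a shared number marks.

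Ezh2 occupied all 7 windows in both wild-type libraries and 6 of 7 in the knockout, where the Mixl1 window had no called peak. Cut into consecutive 70 kb windows, the genome held an Ezh2 peak in 6.31% of windows for library 0, 16.8% for library 1 and 8.08% for the knockout. Ezh2 peaks of library 0 covered 38038 bp of the windows (8.09%), those of library 1 covered 81365 bp (17.3%) and those of the knockout covered 28075 bp (5.97%). In 6 genes, all but Mixl1, a library 1 peak had the score of 3100, at the top 1.51% of that list. Few places in the genome had as much Ezh2 as these 6 loci, with the reservation that the gene windows are 60 to 80 kb long and were placed on the genes. For library 0, the share of 70 kb windows covered over at least the same length ran from 0.140% (Foxa1) to 0.942% (T). The range was 0.150% (Foxa1) to 0.810% (Gsc) for library 1 and 0.253% (Foxa1) to 0.522% (Gsc) for the knockout. At Mixl1 the shares were 3.30% and 5.40% in libraries 0 and 1.

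**Figure D1:**
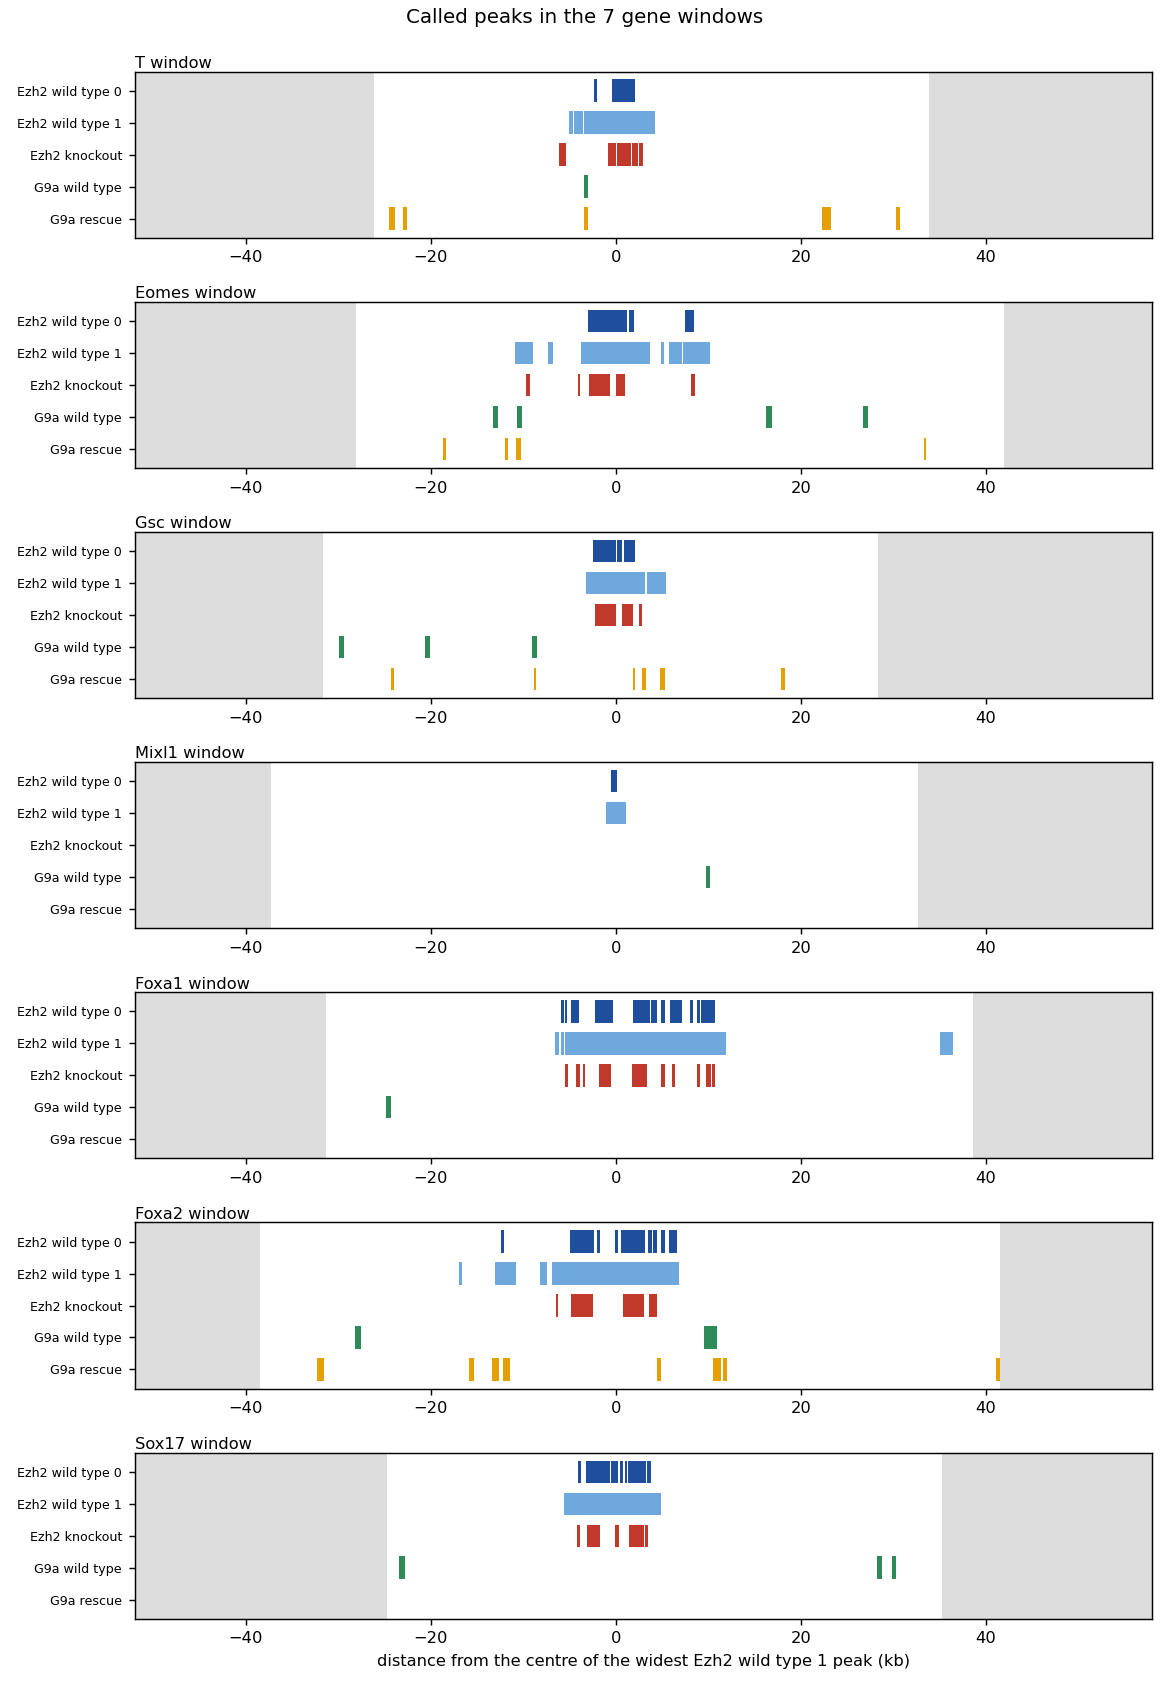
Called peaks of the 5 lists in each gene window, drawn to scale; the x axis is the distance in kb from the centre of the widest Ezh2 peak of wild-type library 1, boxes are peaks, which can touch at this scale, and grey marks positions outside the window. Ezh2 peaks of the 3 lists stack at the same place in 6 windows, the Mixl1 window has no knockout peak, and most G9a peaks lie away from the Ezh2 boxes.

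At T, the mesoderm regulator, Ezh2 was called in all 3 lists. Library 1 had a peak of 6776 bp on chromosome 17 from 8622779 to 8629554, with 3 short peaks beside it of scores 31.19, 204.68 and 79.3. Within that peak library 0 had 3 peaks covering 2766 bp. The strongest ran from 8625707 to 8627222 with a score of 486.56 (rank 602 in its list). In the knockout 4 peaks covered 3485 bp of it. The strongest of these ran from 8626277 to 8627789 with a score of 484.74 (rank 211), and 62.5% of it lay in the strongest library 0 peak. T was the only gene of the 7 where the knockout covered more than library 0 did, at 4194 against 2766 bp in the window (1.52-fold); library 1 covered 9082 bp. The knockout also had a peak where neither wild-type library did, from 8620046 to 8620754, with a score of 93.31. This peak lay 389 bp from the short library 1 peak of score 31.19. It ranked 12 by score among the 1776 Ezh2 regions called in the knockout alone, whose median score was 47.3, and it contributed 709 bp. Without it the knockout coverage of the window would equal the 3485 bp given above, still above the 2766 bp of library 0.

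Eomes, the T-box gene of streak and endoderm, had 2 Ezh2 regions in all 3 lists. The larger, on chromosome 9 from 118384348 to 118391803 (7456 bp in library 1), held 2 peaks of library 0 that spanned 4585 bp, with a best score of 1247.18 (rank 128). The knockout covered 3176 bp of it with 3 peaks, the best at 556.06 (rank 157). That best peak, from 118385189 to 118387463, lay wholly inside the strongest library 0 peak. The smaller region, from 118395302 to 118398274, held 1 library 0 peak of 935 bp and 1 knockout peak of 423 bp. A further site, from 118377191 to 118379143, was called in library 1 (score 186.27) and over 510 bp in the knockout (score 102.69), but not in library 0. Over the whole window the covered lengths were 5520, 14566 and 4340 bp in library 0, library 1 and the knockout.

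Gsc, the organizer homeobox gene, carried 1 Ezh2 region that was called in all 3 lists. It ran on chromosome 12 from 105708409 to 105714810 as a single library 1 peak of 6402 bp. Library 0 had 3 peaks there covering 4253 bp, and the knockout had 3 covering 3697 bp. The strongest ranked 76 in library 0 (score 1472.63) and 123 in the knockout (647.87), and 99.6% of the knockout peak lay in that of library 0. Next to it library 1 alone had peaks from 105714960 to 105716243 (score 342.17) and from 105716307 to 105717085 (85.47). The knockout to library 0 ratio of covered length was 0.869, the highest after T.

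Mixl1, the streak homeobox gene, had the least Ezh2 of the 7. Its region on chromosome 1, from 182626246 to 182628383, was 1 peak of 2138 bp in library 1 (score 522.28, rank 1571) and 1 peak of 706 bp in library 0 (score 144.25, rank 1828). No knockout peak was called in the window, and the nearest one lay 362937 bp from the region. Regions of similar score give a background for this absence. Regions of both wild-type libraries were split into deciles by score. In the library 0 decile of the Mixl1 region 62.6% (166 of 265) held a knockout peak, and in its library 1 decile 56.8% (150 of 264) did. At any strength, regions of both wild-type libraries were kept in 52.3% of cases on chromosome 1 (101 of 193), against 62.6% over all chromosomes. The Sox17 region on the same chromosome was kept. It was stronger, in library 0 decile 10 and library 1 decile 9, where 99.6% and 95.8% of regions were kept. Whether strength or chromosome bears on the missing Mixl1 call was not tested.

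Foxa1 had the longest Ezh2 coverage of the 7 in every Ezh2 list. On chromosome 12 library 1 had a peak of 11062 bp (58635827 to 58646888) and, next to it, one of 5850 bp (58646913 to 58652762). The first was broken into 8 peaks in library 0 (6009 bp) and 7 in the knockout (4378 bp), and the second into 5 (3454 bp) and 4 (1564 bp). Its best score was 592.4 in library 0 (rank 455) and 243.74 in the knockout (rank 607), the latter the lowest best score of the 6 genes with knockout peaks. The best knockout peak, from 58639596 to 58640871, lay inside the best library 0 peak. In the whole window 9767, 19685 and 5952 bp were covered in library 0, library 1 and the knockout. Library 1 alone had a peak of 1427 bp (score 241.46) near the window's end, from 58676400 to 58677826. Ttc6 is the next protein-coding gene after Foxa1 in RefSeq (GRCm38.p6), and which gene that peak belongs to was not determined.

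Foxa2 had the widest single Ezh2 peak, 13751 bp in library 1 on chromosome 2 from 147861625 to 147875375, which ranked 26 of 11766 by width. Library 0 had 9 peaks in it covering 7925 bp, and the knockout had 4 covering 5695 bp. Both lists had the same 2 centres. The first scored 481.89 in library 0 (147863599 to 147866165) and 645.1 in the knockout (147863700 to 147866041). The second scored 1098.3 in library 0 (147869082 to 147871701, rank 163) and 868.04 in the knockout (147869270 to 147871530, rank 67), the highest knockout score of the 7 genes. A separate region from 147855396 to 147857194, called in both wild-type libraries with scores of 53.84 and 353.17, had no knockout peak.

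Sox17, the endoderm HMG-box gene, also had 2 Ezh2 centres, and their order by score differed between lists. A library 1 peak of 8831 bp on chromosome 1, from 4480330 to 4489160, held 7 library 0 peaks (6779 bp) and 5 knockout peaks (4197 bp). In library 0 the centre from 4481521 to 4484095 scored 1485.86 (rank 74), the highest library 0 score of the 7 genes, and the centre from 4486011 to 4488047 scored 977.18. In the knockout the corresponding peaks scored 277.71 (4481590 to 4483040) and 356.7 (4486172 to 4487788, rank 360). The highest-scoring peaks of library 0 and the knockout therefore shared 0 bp at Sox17, whereas at the other 5 genes with knockout peaks they overlapped by 946 to 2275 bp. Library 1 gives both centres as 1 peak and so cannot show an order.

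**Figure D2:**
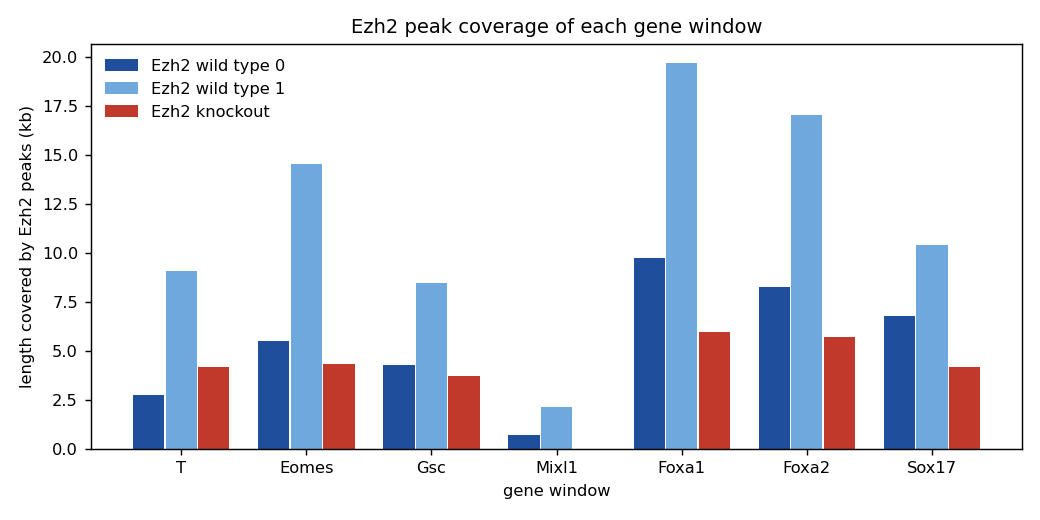
Length in kb covered by Ezh2 peaks (y axis, from 0) in each of the 7 gene windows (x axis), 1 bar per library and no error bars because each bar is 1 library. Library 1 is highest at every gene, the knockout is below library 0 at 6 genes and above it at T, and Mixl1 has no knockout bar.

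Set side by side, the knockout covered less than either wild-type library at 6 of the 7 genes, and over all windows the wild-type libraries differed from each other by more than the knockout differed from library 0. Over all windows the ratio of knockout to library 0 coverage was 0.738, that of knockout to library 1 was 0.345, and that of library 0 to library 1 was 0.467. By gene the knockout to library 0 ratio was 0.609 at Foxa1, 0.619 at Sox17, 0.691 at Foxa2, 0.786 at Eomes, 0.869 at Gsc and 1.52 at T, and it was 0 at Mixl1. The ratio of library 0 to library 1 ran from 0.305 at T to 0.652 at Sox17, and only at Mixl1 and Sox17 was it nearer to 1 than the knockout to library 0 ratio. Over the 1653 kept regions of the genome the knockout to library 0 ratio had a median of 0.796, with quartiles of 0.561 and 1.05. The window ratios of the 5 genes from Foxa1 to Gsc in that order lay within these quartiles, with T above and Mixl1 not among kept regions. Window ratios and region ratios are unlike measures. By region, the second Foxa1 region (1564 against 3454 bp) and the smaller Eomes region (423 against 935 bp) fell below the lower quartile. The T region (3485 against 2766 bp) lay above the upper quartile, and the other kept regions lay between. The knockout to library 1 ratio had a median of 0.343 over the same regions. Taken by region, the 8 kept regions of these genes had median ratios of 0.706 to library 0 and 0.420 to library 1. The 338 kept regions of the genome with a library 1 score of at least 3100 had medians of 0.794 and 0.481.

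**Figure D3:**
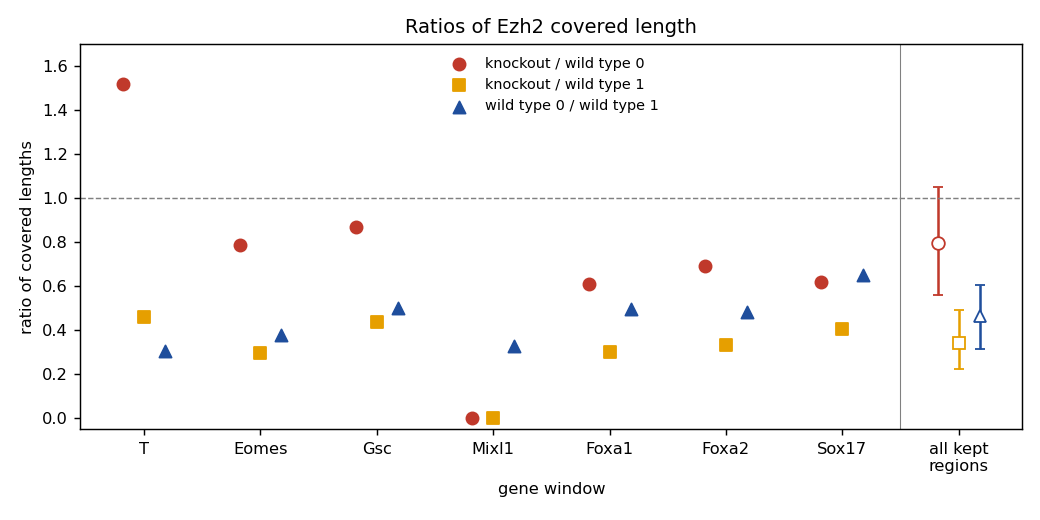
Ratios of the length covered by Ezh2 peaks (y axis) in each gene window (x axis), with filled symbols for single windows and, at the right, open symbols and bars for the median and quartiles over the 1653 Ezh2 regions kept in the knockout genome-wide. The dashed line marks equal coverage; T is the only gene above it for the knockout against library 0.

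The positions called in the knockout were nearly all positions called in the wild type. Of the 28075 bp covered in the knockout, 96.6% lay in library 1 peaks and 83.7% in library 0 peaks. Of the 34 knockout peaks, 32 overlapped a library 1 peak (94.1%, against 71.0% of the whole knockout list). The others were the T peak described above and one at Eomes from 118383965 to 118384195 with a score of 49.75. All 41 library 0 peaks overlapped a library 1 peak (91.3% of the whole library 0 list did), and 23 of them overlapped a knockout peak (56.1%, against 51.1%). Of the 31 Ezh2 regions in the windows, 17 were found in library 1 alone, as were 61.0% of all Ezh2 regions of the genome. Their scores ran from 30.2 to 342.17 with a median of 50.9.

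Overlapping Ezh2 peaks of the 3 lists merged into 31 regions in the windows, of which 11 held both wild-type libraries. A knockout peak was present in 8 of these 11 (72.7%, with an exact binomial 95% interval of 39.0 to 94.0 that covers counting error only). The interval takes the 11 regions as independent, although Eomes, Foxa1 and Foxa2 each held more than 1 of them. A knockout peak was absent from 3: the Mixl1 region, the Foxa2 side region and a region of 335 bp at Foxa1 from 58635454 to 58635788. The nearest knockout peak lay 362937, 4801 and 28 bp away in the same order, so the Foxa1 region adjoined a kept one. With peaks within 1 kb merged, 7 of 9 regions were kept (77.8%). The genome-wide share was 62.6% (1653 of 2642), which lies inside that interval. Of the 8 kept regions, 7 had a library 1 score of 3100; genome-wide all 338 regions with a library 1 score of at least 3100 were kept (100%). The share depended on the wild-type lists used. With regions built from library 1 and the knockout (without library 0), 9 of 29 were kept (31.0%), and with library 0 and the knockout (without library 1), 20 of 38 were (52.6%). Leaving out a list also changes how peaks merge, since wide library 1 peaks join several library 0 peaks into 1 region.

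G9a calls in the windows had scores typical of their lists. Most lay away from Ezh2, as over the whole lists, where 2.71% of wild-type and 2.53% of rescue peaks overlapped an Ezh2 peak. In the windows these shares were higher, at 13.3% and 33.3%. All 7 windows held a wild-type G9a peak, and 4 (T, Eomes, Gsc and Foxa2) held a rescue peak; genome-wide 53.8% and 63.5% of 70 kb windows did. With windows shorter by 10 kb at both ends, 5 of 7 held a wild-type peak. The 15 wild-type peaks had scores from 20.51 to 45.58, and the 24 rescue peaks from 20.26 to 84.4. Their medians were 31.4 and 25.1, against 31.7 and 26.9 over the whole lists. The best wild-type peak, at Gsc from 105681642 to 105682203, stood at the top 30.9% of its list. The best rescue peak, at T from 8648501 to 8649423, stood at the top 5.08% and lay 18048 bp from the nearest Ezh2 peak.

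Few of these G9a peaks were in both lists. Of the 15 wild-type peaks 4 overlapped a rescue peak (26.7%, against 31.9% of the whole list), and of the 24 rescue peaks 4 overlapped a wild-type peak (16.7%, against 27.2%). The 4 shared sites were at T, Eomes, Gsc and Foxa2, 1 at each. At T the peaks began at the same base, from 8622691 to 8623166 in the wild type (score 30.62) and to 8623200 in the rescue (41.5), and lay at the edge of the wide library 1 Ezh2 peak, with 388 and 422 bp inside it. At Eomes they ran from 118377410 to 118377949 (31.96) and from 118377295 to 118377848 (28.77), wholly inside a library 1 Ezh2 peak. Both shared 0 bp with the knockout Ezh2 peak in that stretch, which ran from 118378331 to 118378840. At Gsc and Foxa2 the shared sites lay outside Ezh2 peaks. The shared Gsc site was 5368 bp from the nearest Ezh2 peak in the wild type, and the shared Foxa2 site was 2676 bp from one. The single wild-type peaks at Mixl1 (score 24.69) and Foxa1 (31.6) and the 3 at Sox17 (27.56, 27.76 and 43.88) had no rescue counterpart and lay 8655 bp, 17689 bp and at least 17112 bp from Ezh2.

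Ezh2 peaks were overlapped by 2 of the 15 wild-type G9a peaks (13.3%) and 8 of the 24 rescue peaks (33.3%). Over the whole lists 2.71% and 2.53% did. These windows are rich in Ezh2, and library 1 peaks alone cover 17.3% of them. All of these overlaps were with library 1 peaks. Library 0 peaks were also overlapped by 3 rescue peaks, over 233 bp at Gsc and 64 and 101 bp at Foxa2. Knockout peaks were overlapped by 3 rescue peaks, only over 22 and 49 bp at Gsc and 10 bp at Foxa2. The wild-type overlaps were the shared sites at T and Eomes. Beyond these, the rescue list had 3 overlapping peaks at Gsc, with scores of 20.35 to 26.9, and 3 at Foxa2, with scores of 27.54 to 43.12. At Foxa2, 2 of the 3 lay in the side region that had no knockout Ezh2 peak. Counted by region, 2 of the 31 Ezh2 regions held a wild-type G9a peak (6.45%, against 12.8% of all Ezh2 regions) and 6 held a rescue peak (19.4%, against 14.1%). In a count added after seeing the data, a wild-type G9a peak lay in 1 of the 11 regions shared by libraries 0 and 1 (T), and a rescue peak in 4 (T, Gsc and both of Foxa2). Genome-wide 16.0% and 20.0% of regions shared by libraries 0 and 1 did.

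**Figure D4:**
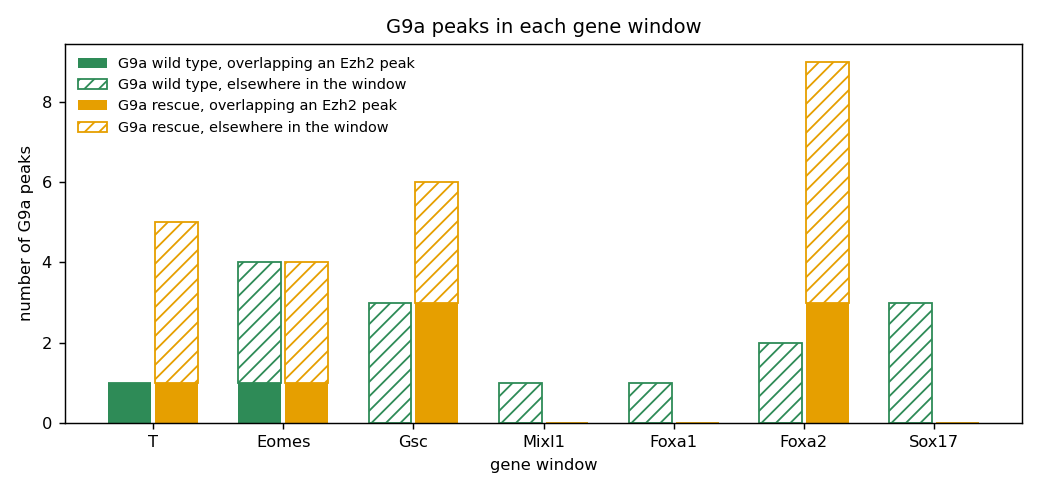
Number of G9a peaks (y axis) in each gene window (x axis) in the wild-type and rescue lists; solid parts are peaks that overlap an Ezh2 peak of any list and hatched parts lie elsewhere in the window. Foxa2 has the most rescue peaks (9), and Mixl1, Foxa1 and Sox17 have none.

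The windows without rescue G9a peaks differ in their surroundings. Mixl1 and Sox17 lie on chromosome 1, where 46.6% of 70 kb windows held a rescue peak and 79.2% held a wild-type peak. On chromosomes 2, 9 and 17, where Foxa2, Eomes and T lie, the rescue shares were 76.3%, 75.6% and 70.7%. The wild-type shares there were lower, at 56.6%, 58.2% and 54.2%. Foxa1 and Gsc lie on chromosome 12 (63.3% rescue, 47.0% wild type). In the 500 kb on both sides of the windows, wild-type G9a peaks numbered 63 at Mixl1 and 49 at Sox17, and rescue peaks 5 and 15. At Foxa1 the order was the opposite, with 9 wild-type and 29 rescue peaks around a window with 1 and 0. The part of these chromosome differences in the gene windows was not tested.

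Ezh2 peaks were more frequent per length in the 7 windows than in the 500 kb on either side in every Ezh2 list, except in the Mixl1 window of the knockout, which had none. Foxa1 had 14 library 0 peaks in its window and 3 in the 500 kb on either side, and 11 and 1 in the knockout. Foxa2 had 10 and 1 in library 0 and 4 and 1 in the knockout. In the knockout the flanks held 2 peaks at Eomes, 2 at Gsc and 1 at Sox17, each with a score of at most 59.42. Library 1 had larger flanking sites. It covered 13052 bp in the flanks of T, 13604 bp at Mixl1 and 9716 bp at Sox17, against 9082, 2138 and 10392 bp in the windows. These lengths are not scaled: the flanks are 500 kb on either side, and the windows are 60, 70 and 60 kb long. The best flanking scores in library 1 were 3100 at T, 1778.06 at Mixl1, 1383.22 at Sox17, 566.52 at Foxa1 and 564.14 at Foxa2. In library 0 the best flanking scores were 1271.57 at T and 536.75 at Mixl1, each above the best score of its window in that list. In the knockout they were 520.88 and 364.87, so Ezh2 was called within 500 kb of the Mixl1 window in that list too.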

How the data were processed

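Chromatin was analysed as ChIP-seq peak lists, 1 per library, from 5 libraries; 3 input libraries were not analysed here. Per the submitters' processing notes, Bowtie 0.12.7, MACS 1.4 and mm9 were used. The design text names the combined wild-type inputs as control and does not single out the knockout and rescue lists; call thresholds are not given in the sources used here. Each deposited list gives a position and a score per peak, which MACS defines as 10 times the negative log10 of p. Cells were fixed with 1% formaldehyde for 10 min, and G9a samples first with 2 mM DSG for 45 min, per the labels' protocols.

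The 7 genes, the windows and the lists were chosen with earlier results of these data known, and all 7 genes are named. A peak belonged to a window, another peak or a region when they shared at least 1 bp. Covered length is the union of peaks clipped to the window. Overlapping Ezh2 peaks of the 3 lists were merged into regions, and a region of both wild-type libraries was kept when it held a knockout peak. Tied scores took their mean rank. The genome was cut into 37917 windows of 70 kb with chromosome lengths from GenomeInfoDb 1.38.1. Other gastrulation genes were to be described if an mm9 annotation was used, and none was. Promoter stretches came from RefSeq (GRCm38.p6). Python 3.11.15, numpy 2.4.6, scipy 1.17.1 and matplotlib 3.10.9 were used, and overlap, merging and coverage were tested on simulated data. Alternatives changed the score minimum, list length, merging, window edges, wild-type libraries and overlap. Positions are 1-based.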

Additional observations from a re-analysis of the deposited data

How the results depend on the processing

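The counts of windows with an Ezh2 peak (7, 7 and 6) held under every alternative run for them: scores of at least 100, equal list lengths and longer or shorter windows. Of 60 values under alternatives, 44 stayed within 1.5 times the count, the binomial interval or the spread between wild-type libraries (SD of the ratio 0.278). These limits were wide, so a value within them is weak evidence of stability. The SD came from only 2 ratios, 0.738 and 0.345, and the binomial interval ran from 39.0 to 94.0%. With scores of at least 100 in every list, both G9a lists had 0 peaks in the windows, hence 0 windows with a peak, 0 shared peaks and 0 Ezh2 regions with a G9a peak; this minimum lies above every G9a score there. With windows longer by 20 kb at both ends there were 29 wild-type and 37 rescue G9a peaks, of which 9 and 10 were found in the other list. With windows shorter by 10 kb there were 10 wild-type G9a peaks, in 5 windows, and 15 rescue peaks. Counting G9a peaks within 1 kb of a region gave 10 regions with a rescue peak instead of 6. Restricting to regions of both wild-type libraries, chosen after seeing the data, gave 1 region with a wild-type G9a peak instead of 2. Leaving out each wild-type Ezh2 library gave 31.0% to 52.6% of regions kept. No paired analysis was possible because the knockout Ezh2 library shares only the number 0 with the wild type and both G9a groups have 1 library, numbered 1.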
